A study of Mus musculus with 2 samples.

Results

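In perivascular adipose tissue of old mice, 780 stromal cell barcodes carried the fibroblast gene Pi16 together with collagen transcripts. They were chosen by their UMI counts (unique molecular identifiers, each standing for 1 captured transcript). A barcode had to have at least 500 detected genes, at most 10% mitochondrial UMIs and at least 10 UMIs of Col1a1, Col1a2 and Col3a1 summed. It also had to have 0 UMIs of 7 genes that mark endothelial, immune, mesothelial, Schwann and cycling cells (Pecam1, Cdh5, Ptprc, Upk3b, Sox10, Top2a and Mki67) and at least 2 Pi16 UMIs. Of 14636 deposited barcodes of the old library, 14013 passed the gene minimum, 13711 of those the mitochondrial limit, 11694 the collagen minimum and 6748 the 7 genes at 0. These 6748 are called mesenchymal barcodes, and the 780 with at least 2 Pi16 UMIs, called Pi16 barcodes, made up 11.6% of them (95% exact binomial interval 10.8 to 12.3%). A further 1096 mesenchymal barcodes had 1 Pi16 UMI, and 4872 had 0 (Pi16-zero barcodes). In the young library, 5 of 7356 mesenchymal barcodes met the whole rule. The series as a whole held 27740 barcodes.

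The study compared stromal cells of the fat that surrounds the aorta of old and of young wild-type (WT) mice. Cells were released with collagenase, red blood cells were lysed and the libraries were built with 10x Genomics droplet chemistry, which reads the 3′ end of transcripts. There was 1 library of old and 1 library of young mice, labelled primary perivascular stromal cells. For age in months, sex and number of pooled animals, nothing is given in the sources used here. With 1 library per age there is no replicate, cells of a library are not replicates, and no p-value is given. Intervals cover counting error only and treat UMIs as independent, which transcripts of the same cell are not. Old and young differ by library as well as by age, and these cannot be told apart.

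Pi16 encodes peptidase inhibitor 16, a protein of the CAP family that is anchored to the cell surface and secreted. Fibroblasts with Pi16 lie in the adventitia of vessels and in the connective tissue sheets of fat, and in mouse they often carry Dpp4, Cd55, Ly6a (Sca-1) and Cd34. They have been described as a reservoir from which committed preadipocytes and other fibroblasts arise, while contractile genes such as Acta2 and Cnn1 mark smooth muscle cells and myofibroblasts.

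The gene Pi16 (ENSMUSG00000024011) lies at chr17:29317680-29330593 on the plus strand of GRCm38. The 250 bases upstream of its RefSeq start are shown with those of Ankrd1, the gene with the lowest relative level in Pi16 barcodes, and of Myl9, a contractile gene that was also lower there. The sequences are from RefSeq on GRCm38.p6, written 5′ to 3′ on the strand of the gene. The Pi16 window is chr17:29318632-29318881 on the plus strand, that of Ankrd1 chr19:36119845-36120094 on the minus strand and that of Myl9 chr2:156775214-156775463 on the plus strand. The gene span given above is from GENCODE, whose gene starts differ from those of RefSeq. The Pi16 and Ankrd1 windows lie inside the GENCODE spans of their genes, and the Myl9 window overlaps the start of its own. Bases upstream of the GENCODE start of Pi16 were not searched. Capitals mark the letters GGAATG or their reverse complement, a core bound by TEAD factors, and the CArG box, the element bound by serum response factor. Only its strict form was searched for, CC, then 6 letters that are each A or T, then GG, and CArG box here means that form.
Pi16: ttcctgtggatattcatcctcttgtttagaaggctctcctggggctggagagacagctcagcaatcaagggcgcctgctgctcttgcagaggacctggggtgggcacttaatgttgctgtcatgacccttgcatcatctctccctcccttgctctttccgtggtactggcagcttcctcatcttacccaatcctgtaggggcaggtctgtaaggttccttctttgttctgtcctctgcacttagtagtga
Ankrd1: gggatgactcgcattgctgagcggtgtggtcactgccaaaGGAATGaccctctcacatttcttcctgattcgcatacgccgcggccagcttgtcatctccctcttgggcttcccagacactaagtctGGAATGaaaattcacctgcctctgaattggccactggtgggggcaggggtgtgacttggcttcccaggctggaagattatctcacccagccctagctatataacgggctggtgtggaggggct
Myl9: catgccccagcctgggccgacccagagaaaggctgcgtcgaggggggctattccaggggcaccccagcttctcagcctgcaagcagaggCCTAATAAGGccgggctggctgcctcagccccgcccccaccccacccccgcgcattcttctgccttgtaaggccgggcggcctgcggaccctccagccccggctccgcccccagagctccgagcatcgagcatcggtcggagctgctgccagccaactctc
The TEAD letters occurred at 2 places in the Ankrd1 window and the CArG box at 1 place in the Myl9 window, and neither was found in the Pi16 window. Neither was found in the windows of Cnn1 and Cd55, which are not shown. The Acta2 window, also not shown, held the TEAD letters at 1 place and no CArG box of the strict form. It did hold ccctatatgg and ccttgtttgg, which each differ from that form by 1 letter. Such near matches were not counted in any window. Cnn1 and Acta2 are contractile genes that were lower in Pi16 barcodes too. Sites outside the 250 bases and near matches were not searched for, so no link between level and CArG box can be read from these windows. Of 27025 mouse promoters with an entry, 12.6% held the TEAD letters and 1.4% a CArG box on either strand. Among the 15 genes with the lowest relative level, 13 had an entry. TEAD letters were in 2 of them (15.4%), Ankrd1 and Lmod1, and a CArG box was in 2 (15.4%), Lmcd1 and Myl9. Of the 15 genes with the highest relative level, 6 had an entry, and the TEAD letters were in 2 (33.3%), Igfbp5 and Il33, and the CArG box in 0. A match is a run of letters and says nothing about binding.

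Pi16 itself was used to choose the barcodes, so its values are a description. The old library had 3933 Pi16 UMIs in its mesenchymal barcodes, 60.6 CPM (UMIs scaled by the group's total UMIs), and the young library 67 UMIs or 0.978 CPM. The log2 ratio of old over young was 5.95 (5.61 to 6.32). At least 1 Pi16 UMI was found in 27.8% of old mesenchymal barcodes (26.7 to 28.9%) and in 0.829% of young ones (0.635 to 1.06%). Among the 780, 348 barcodes had 2 Pi16 UMIs, 172 had 3 and 260 had 4 or more, and the highest had 29. Most members therefore sit close to the threshold.

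**Figure D1:**
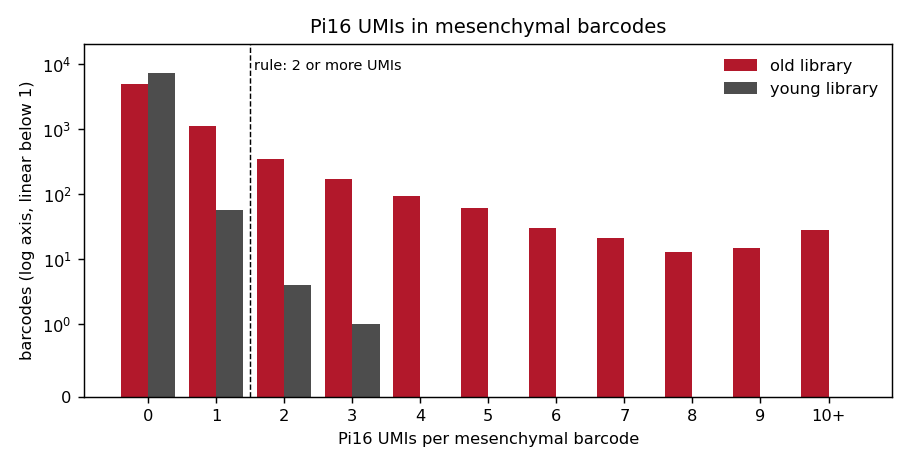
Number of mesenchymal barcodes (vertical axis, log scale that is linear below 1) by Pi16 UMIs per barcode (horizontal axis) in the old library (red, left bars) and the young library (grey, right bars). The dashed line is the threshold of 2 UMIs, with 780 old and 5 young barcodes at or above it.

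Depth and free RNA bear on these shares. Pi16 barcodes had a median of 9173 UMIs and 2774 genes, and Pi16-zero barcodes 8418 UMIs and 2574.5 genes. The share of Pi16 barcodes was 6.67% (45 of 675) in the shallowest decile of mesenchymal barcodes and 13.8% (93 of 675) in the sixth decile. Pi16 CPM ran the other way at the deep end, with 38.2 in the deepest decile against 74.7 in the shallowest. After each barcode was thinned to 3000 UMIs, at least 2 Pi16 UMIs remained in 3.65% of old mesenchymal barcodes (243 of 6666 that were deep enough) and in 0.0140% of young ones (1 of 7122, with 234 too shallow to thin). Old barcodes with endothelial UMIs and under 10 collagen UMIs, which should lack the gene, had at least 1 Pi16 UMI in 14.7% of 848 and at least 2 in 1.65% (median 10787.5 UMIs). Thinned, these endothelial shares were 5.52% and 0.120%, against 13.2% and 3.65% in mesenchymal barcodes. At least 2 Pi16 UMIs were found in 0 of 85 macrophage barcodes, which allows a share of up to 3.53% (3 counts of the total; exact binomial upper limit 4.25%), and in 0 of 95 adipocyte barcodes, which allows up to 3.16% (exact upper limit 3.81%). A single Pi16 UMI was thus common in another cell type, and 2 UMIs were rare there. The libraries shared 275 barcode sequences, 13 of them among the 780 and 0 among the 5 young ones.

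The label was checked against markers. Of 8 general mesenchymal markers, all were detected in Pi16 barcodes, with a summed level of 1551 CPM against 1361 CPM in Pi16-zero barcodes. Dcn, the proteoglycan decorin, had 364.6 CPM in Pi16 barcodes and 245.7 CPM in Pi16-zero barcodes, and the receptor gene Pdgfra 222.7 and 195.9 CPM in the same order. Pdgfrb went the other way, with 132.3 CPM in Pi16 barcodes and 168.0 CPM in Pi16-zero barcodes (log2 -0.34, -0.44 to -0.25), and Col6a1 and Col5a1 had log2 ratios of -0.01 and 0.03. Markers of other cell types were low and mostly alike. B and plasma cell markers were an exception, at 15.6 CPM in Pi16 barcodes and 0.241 CPM in Pi16-zero barcodes. Of the 105 Jchain UMIs among them in Pi16 barcodes, 104 were in 1 barcode. Proliferation markers summed to 108.5 CPM in Pi16 barcodes and 128.9 CPM in Pi16-zero barcodes. Blood endothelial markers summed to 41.6 CPM in Pi16 barcodes and 47.9 CPM in Pi16-zero barcodes, macrophage markers to 87.6 and 86.9 CPM, adipocyte markers to 17.8 and 18.9 CPM, and Schwann markers to 6.15 and 9.67 CPM in that order. Mesothelial markers summed to 29.8 CPM in Pi16 barcodes and 21.1 CPM in Pi16-zero barcodes, of which Wt1 made up 23.5 and 14.8 CPM, while Msln had 1 UMI in all Pi16 barcodes. Muscle and pericyte markers differed more and are given beside the contractile genes. The position of the cells in the vessel wall is not in these data, so that "adventitial" rests on marker genes alone, and several of the usual ones were scarce. Dpp4 had 14 UMIs in 14 of the 780 Pi16 barcodes (1.76 CPM) and 25 UMIs in Pi16-zero barcodes (0.548 CPM). Clec3b had 16 UMIs in Pi16 barcodes, Sema3c 41 and Dpt 50.

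Gene levels were then compared between Pi16 barcodes and Pi16-zero barcodes of the old library, as CPM of the summed UMIs. Of 7406 genes with a mean of both groups' CPM of at least 10, without Pi16 and the 10 other genes of the rule, 29 (0.392%) were at least 2-fold higher in Pi16 barcodes and 10 (0.135%) at least 2-fold lower. Some of these passed the minimum CPM only through the group where they are high. Among the 29 they included Prg4, Scara5, Tmem100 and the immunoglobulin genes Igkc and Ighm. Among the 10 they were Plscr2, Siglecg, Hspb7, Lmod1 and Nuak1. At a mean CPM of at least 50, 13 genes were 2-fold higher and 2 lower. At 1.5-fold, 150 (2.03%) were higher and 64 (0.864%) lower. The median log2 ratio of all genes tested was 0.03, with 5th and 95th percentiles of -0.28 and 0.39. By these counts the difference was narrow, with a small set of genes standing apart from most others. Pi16-zero barcodes can include cells whose Pi16 transcripts were not captured, and their part in the ratios was not tested. With 3 or more Pi16 UMIs against 0, 57 genes were at least 2-fold higher and 24 lower.

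Several surface proteins were among the 15 highest genes. Cd55, which protects cells from complement, had 69.1 CPM in Pi16 barcodes, 22.0 CPM in Pi16-zero barcodes and 4.82 CPM in young mesenchymal barcodes, a log2 ratio of Pi16 over Pi16-zero of 1.65 (1.5 to 1.80). Ly6a, the stem cell antigen Sca-1, had 653.6 CPM in Pi16 barcodes, 244.9 CPM in Pi16-zero barcodes and 124.8 CPM in young ones, a log2 ratio of 1.42 (1.37 to 1.46). Ly6c1, of the same family, had 39.8 CPM in Pi16 barcodes and 14.6 CPM in Pi16-zero barcodes, and reads of near-identical Ly6 genes may be divided among them. The difference was also seen per cell. After thinning to 3000 UMIs, Ly6a was detected in 64.4% of Pi16 barcodes (61.0 to 67.8%), 36.1% of Pi16-zero barcodes and 23.7% of young mesenchymal barcodes. Without thinning, the shares were 84.4% of Pi16 barcodes and 58.6% of Pi16-zero barcodes. Cd55 was detected in 13.4% of thinned Pi16 barcodes (11.1 to 16%), 4.75% of Pi16-zero barcodes and 1.18% of young ones, so that most Pi16 barcodes showed no Cd55 at that depth. Adgrd1, an adhesion G protein-coupled receptor, had 83.9 CPM in Pi16 barcodes and 32.2 CPM in Pi16-zero barcodes. Scara5, a receptor for ferritin, had 20.3 CPM in Pi16 barcodes and 7.61 CPM in Pi16-zero barcodes, and Tmem100, a membrane protein, 23.5 and 9.17 CPM in that order.

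Genes of a secreted lubricant and of the synthesis of hyaluronan and its building blocks were also among the higher genes. Prg4, the joint lubricant lubricin, had the largest log2 ratio of the named genes, 2.03 (1.74 to 2.31), with 22.1 CPM in Pi16 barcodes and 5.42 CPM in Pi16-zero barcodes. It was sparse and uneven: 59 of the 780 barcodes had a Prg4 UMI, and 57 of the 176 UMIs were in 1 barcode. Prg4, like Scara5 and Tmem100, passed the minimum CPM only through its level in Pi16 barcodes. Has1, a hyaluronan synthase, had 80.6 CPM in Pi16 barcodes, 34.0 CPM in Pi16-zero barcodes and 2.35 CPM in young mesenchymal barcodes, a log2 ratio of 1.24 (1.11 to 1.38) between Pi16 and Pi16-zero barcodes. Gfpt2, which makes the first committed step to the hexosamines that hyaluronan is built from, had 426.3 CPM in Pi16 barcodes, 171.5 CPM in Pi16-zero barcodes and 35.6 CPM in young ones, a log2 ratio of 1.31 (1.26 to 1.37). Uap1, an enzyme further along that route and named after its values were seen, had 489.6 CPM in Pi16 barcodes and 237.9 CPM in Pi16-zero barcodes (log2 1.04, 0.99 to 1.09). Ugdh, which makes the other sugar nucleotide of hyaluronan, had 679.7 CPM in Pi16 barcodes and 394.4 CPM in Pi16-zero barcodes (log2 0.79, 0.74 to 0.83). Of 12 listed hyaluronan genes, 9 were tested, 3 were at least 1.5-fold higher, beside 2.03% of all genes (Has1, the hyaluronan-binding proteoglycan Vcan and Tnfaip6) and 1 was lower. The lower one was Cemip, which is needed for hyaluronan breakdown, with 76.6 CPM in Pi16 barcodes and 149.5 CPM in Pi16-zero barcodes (log2 -0.97, -1.09 to -0.85). The list as a whole had a median log2 ratio of 0.05, close to the 0.03 of all genes, as Cd44, the main hyaluronan receptor, and Has2 lay at -0.21 and 0.32.

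Signalling and metabolic genes made up the rest of the 15 highest. Igfbp5, which binds insulin-like growth factors, had 323.4 CPM in Pi16 barcodes, 114.8 CPM in Pi16-zero barcodes and 11.3 CPM in young mesenchymal barcodes (log2 ratio of Pi16 over Pi16-zero 1.49, 1.42 to 1.56). It was unevenly spread, being detected in 274 of the 780 barcodes with up to 123 UMIs in 1. Il33, an alarmin cytokine that stromal cells of fat release to immune cells, had 108.1 CPM in Pi16 barcodes, 47.3 CPM in Pi16-zero barcodes and 6.54 CPM in young ones (log2 1.19, 1.08 to 1.31). Htra4, a secreted serine protease, had 33.6 CPM in Pi16 barcodes and 12.9 CPM in Pi16-zero barcodes. Star, which moves cholesterol into mitochondria, had 40.8 CPM in Pi16 barcodes and 18.8 CPM in Pi16-zero barcodes. Ttc39c had 43.8 and 20.3 CPM and Pnp2, a purine nucleoside phosphorylase with the close copy Pnp, 31.5 and 14.7 CPM, each with Pi16 barcodes first.

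Among the 15 lowest genes, Lmod1, Cnn1 and Myl9 belong to the contractile list, and the lowest was Ankrd1. Ankrd1, a target of the YAP and TAZ co-activators that stretch induces, had 24.9 CPM in Pi16 barcodes, 74.8 CPM in Pi16-zero barcodes and 235.2 CPM in young mesenchymal barcodes (log2 ratio of Pi16 over Pi16-zero -1.59, -1.80 to -1.38). Cnn1, calponin of smooth muscle, had 35.1 CPM in Pi16 barcodes, 82.2 CPM in Pi16-zero barcodes and 178.5 CPM in young ones (log2 -1.23, -1.41 to -1.05). Lmod1, which nucleates actin filaments in smooth muscle, had 6.03 CPM in Pi16 barcodes and 15 CPM in Pi16-zero barcodes. Myl9, the myosin regulatory light chain of smooth muscle, had 115.0 CPM in Pi16 barcodes and 233.5 CPM in Pi16-zero barcodes (log2 -1.02, -1.12 to -0.92). The others among the 15 lowest were Plscr2, Siglecg, Hspb7, Lmcd1, the kinase gene Nuak1, the receptor gene Notch3 of mural cells, the peptide hormone gene Cck, Glipr1, Cemip, the myosin phosphatase inhibitor gene Ppp1r14a and the chromatin protein gene Hmga2, with log2 ratios between -1.59 and -0.94. Of these, Plscr2 and Siglecg rested on 42 UMIs each and Hspb7 on 45 UMIs in all Pi16 barcodes; like Lmod1 and Nuak1, they passed the minimum CPM only through their level in Pi16-zero barcodes.

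**Figure D2:**
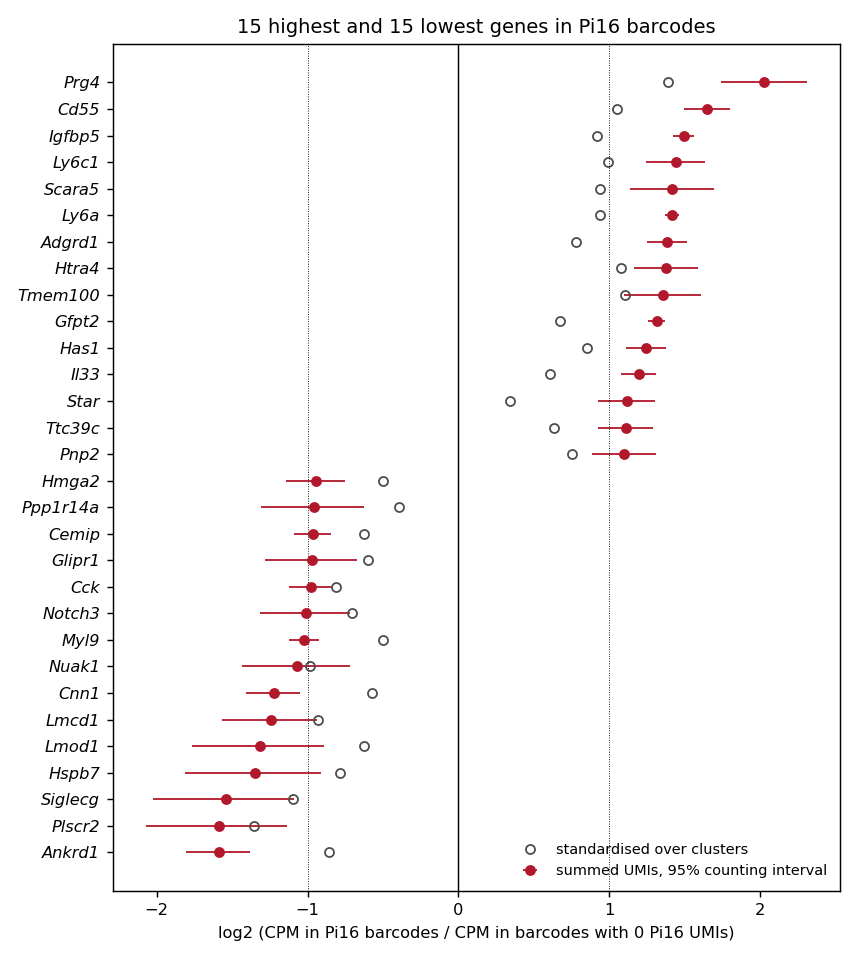
Log2 ratio of CPM in Pi16 barcodes over CPM in Pi16-zero barcodes of the old library (horizontal axis) for the 15 highest and 15 lowest genes (rows). Filled points are summed UMIs with 95% counting intervals, open points the ratio standardised over clusters; dotted lines mark 2-fold. The open points lie nearer to 0 for the 30 genes, with Prg4 at 1.39 and Ankrd1 at -0.86.

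The following genes, picked after their values were seen, are given by the Pi16 UMIs that the rule used, as a description. Cd55 had 22.0, 26.3, 50.8, 54.5 and 104.1 CPM in barcodes with 0, 1, 2, 3 and 4 or more Pi16 UMIs. Ly6a had 244.9, 330.4, 551.3, 737.4 and 739.7 CPM in the same classes, and Procr, the endothelial protein C receptor, 68.9, 81.3, 98.1, 149.2 and 215.9 CPM. Acta2, smooth muscle actin, had 1979, 1815, 1297, 934.3 and 942.5 CPM, with no further step beyond 3 UMIs. Thbs1, the matricellular protein thrombospondin 1, had 977.5, 786.2, 598.0, 452.8 and 460.3 CPM. The chemokine gene Cxcl1 had 3444, 3481, 3358, 3464 and 3584 CPM in the same classes. Not every value ran one way: Ankrd1 had 14.3 CPM at 3 UMIs and 22.3 CPM at 4 or more, and the summed contractile list 6977 and 7221 CPM. Just outside the threshold, barcodes with 1 Pi16 UMI lay nearer to the class with 0 than to the class with 2 for Cd55, Ly6a and Acta2, and 0 genes were 2-fold apart between the classes with 1 and 0.

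**Figure D3:**
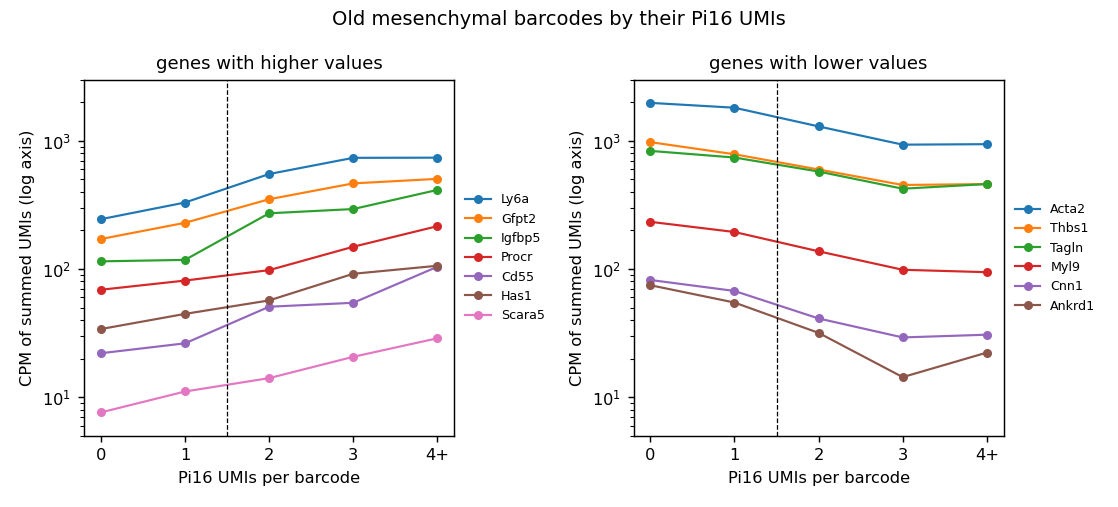
CPM of summed UMIs (log axis) in old mesenchymal barcodes by Pi16 UMIs per barcode, for 7 genes with higher values (left) and 6 with lower values (right). The dashed line is the threshold; Cd55 runs between 22.0 and 104.1 CPM and Ankrd1 between 14.3 and 74.8 CPM.

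Of the 31 gene lists, the one of Pi16 and Dpp4 progenitor genes had the highest median. Of its 24 genes, 15 were tested, 9 were at least 1.5-fold higher in Pi16 barcodes and 0 lower, and the median log2 ratio was 0.79, beside 0.03 for all genes and 2.03% of all genes called higher. The 9 were Cd55, Ly6c1, Ly6a, Il33, Procr, the steroid-metabolising enzyme gene Akr1c18 (13.8 CPM in Pi16 barcodes and 6.95 CPM in Pi16-zero barcodes), Tnxb, Ugdh and the chemokine scavenger gene Ackr3. Akr1c18 and Tnxb (14.7 CPM in Pi16 barcodes, 8.33 CPM in Pi16-zero barcodes) passed the minimum CPM only through their level in Pi16 barcodes, so the count describes the tested genes and not the whole list. The other 6 tested were Creb5, Emilin2, Mfap5, Cd248, Pcsk6 and Anxa3, with log2 ratios between -0.20 and 0.43; Anxa3, an annexin, was the one below 0, with 296.6 CPM in Pi16 barcodes and 340.3 CPM in Pi16-zero barcodes. Of the 9 genes that were not tested, Cd34 had 10.7 CPM in Pi16 barcodes and 5.02 CPM in Pi16-zero barcodes (log2 1.09, 0.71 to 1.45). Wnt2 had 3.52 CPM in Pi16 barcodes and 3.46 CPM in Pi16-zero barcodes, Limch1 1.88 and 2.65 CPM in that order, Sema3c 5.15 and 3.22 CPM, Dpt 6.28 and 4.12 CPM, and Clec3b 2.01 and 0.768 CPM. Efhd1 had 3 UMIs in Pi16 barcodes and 12 in Pi16-zero barcodes, and Bmp7 5 UMIs and 2 UMIs. Summed per barcode, the 24 genes had a median of 2725 CPM in Pi16 barcodes, 2071 CPM in barcodes with 1 Pi16 UMI and 1797 CPM in Pi16-zero barcodes. The sum exceeded the Pi16-zero median in 79.6% of Pi16 barcodes (621 of 780), so the distributions overlapped.

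The contractile list had the lowest median, -0.63. Of 18 genes, 14 were tested, 0 were at least 1.5-fold higher and 7 were lower (Lmod1, Cnn1, Myl9, Acta2, Cnn2, Actg2 and Tagln), beside 0.864% of all genes called lower. Lmod1 passed the minimum CPM only through its level in Pi16-zero barcodes, so the count describes the tested genes and not the whole list. Acta2 had 1102 CPM in Pi16 barcodes and 1979 CPM in Pi16-zero barcodes (log2 -0.85, -0.88 to -0.81), and Tagln, transgelin or SM22 alpha, 505.0 CPM in Pi16 barcodes and 835.3 CPM in Pi16-zero barcodes (log2 -0.73, -0.77 to -0.68). Both stayed detectable in most Pi16 barcodes, Acta2 in 72.8% of those thinned and Tagln in 58.5%, against 85.3% and 73.8% of Pi16-zero barcodes. Cald1, caldesmon, had 2251 CPM in Pi16 barcodes and 2262 CPM in Pi16-zero barcodes, and Mylk, the kinase that activates myosin, was on the other side with 213.5 and 170.1 CPM in that order. Markers of muscle cells moved with the list. The 8 smooth muscle markers summed to 173.4 CPM in Pi16 barcodes and 297.7 CPM in Pi16-zero barcodes, with Myocd at 0 in Pi16 barcodes and 1 marker higher there, and all 8 also belong to the contractile list. The 8 striated muscle markers summed to 6.40 CPM in Pi16 barcodes and 19.8 CPM in Pi16-zero barcodes, with Myh6 and Myl2 at 0 in Pi16 barcodes, and the 8 pericyte markers to 76.6 CPM in Pi16 barcodes and 96.4 CPM in Pi16-zero barcodes, with Higd1b at 0 in Pi16 barcodes. Their part in the result was not tested.

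Genes of myofibroblasts and tissue repair divided. Of 18 tested, 1 was at least 1.5-fold higher and 5 lower, beside 0.864% of all genes lower, with a median of 0.05. Among the lower ones were Thbs1 (521.2 CPM in Pi16 barcodes, 977.5 CPM in Pi16-zero barcodes), Tnc (58.5 and 100.1 CPM in that order), Ctgf and Cyr61, of which Ctgf and Cyr61 encode matricellular proteins of the CCN family. The higher one was the cytokine gene Il11, with 218.1 CPM in Pi16 barcodes and 113.5 CPM in Pi16-zero barcodes (log2 0.94, 0.86 to 1.02). Matrix genes of the same list were close between the groups: Postn had 84.9 CPM in Pi16 barcodes and 83.6 CPM in Pi16-zero barcodes, and Cthrc1 67.8 and 60.6 CPM in that order. Among 23 tested matrix proteases and inhibitors, 5 were at least 1.5-fold higher, beside 2.03% of all genes, and 0 lower, namely Htra4, Mmp3, Mmp2, Htra3 and Cpxm1. Mmp3, stromelysin 1, had 176.6 CPM in Pi16 barcodes and 86.8 CPM in Pi16-zero barcodes, with 184 of its 1407 UMIs in 1 barcode.

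Adipogenic genes were not higher. Of 15 tested genes of committed preadipocytes, 0 were at least 1.5-fold higher and 2 lower, beside 0.864% of all genes lower. The 2 were the fatty acid binding protein genes Fabp4 (102.8 CPM in Pi16 barcodes, 178.6 CPM in Pi16-zero barcodes) and Fabp5 (91.6 and 158.7 CPM in that order). Pparg, the master regulator of adipogenesis, had 10.6 CPM in Pi16 barcodes and 12.2 CPM in Pi16-zero barcodes, and its log2 ratio of -0.21 had an interval of -0.56 to 0.12 that includes 0. F3 (CD142), which marks fibroblasts that restrain adipogenesis in mouse fat, had 67.7 CPM in Pi16 barcodes and 107.6 CPM in Pi16-zero barcodes (log2 -0.67, -0.80 to -0.54). Of 18 lipid handling genes, 5 were at least 1.5-fold higher, beside 2.03% of all genes, and 0 lower: the prostaglandin E2 synthesis genes Ptges (155.5 CPM in Pi16 barcodes, 91.5 CPM in Pi16-zero barcodes) and Ptgs2 (319.4 and 207.9 CPM), the desaturase gene Scd1, Lpin1 and the cholesterol exporter gene Abca1. Of 7 retinoid genes, 2 were lower, beside 0.864% of all genes, and the list median was -0.47. The 2 were the retinoic acid synthesis genes Aldh1a2 (38.8 CPM in Pi16 barcodes, 61.4 CPM in Pi16-zero barcodes) and Aldh1a1 (14.3 and 22.2 CPM).

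The chemokines that are abundant in the old library did not set Pi16 barcodes apart. Cxcl1 had 3455 CPM in Pi16 barcodes, 3444 CPM in Pi16-zero barcodes and 28.5 CPM in young mesenchymal barcodes, a log2 ratio of Pi16 over Pi16-zero of 0.00 (-0.01 to 0.02). Of 17 chemokine and cytokine genes tested, 1 was at least 1.5-fold higher, the granulocyte growth factor gene Csf3 (83.2 CPM in Pi16 barcodes, 51.6 CPM in Pi16-zero barcodes), and 0 were lower. Of 8 acute-phase and defence genes, 3 were higher, beside 2.03% of all genes, and 0 lower, with a list median of -0.10. The 3 were Lcn2 (245.7 CPM in Pi16 barcodes, 133.5 CPM in Pi16-zero barcodes), Lbp and Sod3. Saa3 and Ptx3 had log2 ratios of -0.09 and -0.11. Complement C3 had 178.4 CPM in Pi16 barcodes and 103.9 CPM in Pi16-zero barcodes (log2 0.78, 0.69 to 0.87). The cell cycle inhibitor gene Cdkn2a had 23.2 CPM in Pi16 barcodes and 29.9 CPM in Pi16-zero barcodes (log2 -0.36, -0.59 to -0.14), and the transcription factor gene Klf4 202.7 and 158.4 CPM (log2 0.36, 0.28 to 0.43).

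Of 20 tested growth factor ligands and receptors, 2 were at least 1.5-fold higher (beside 2.03% of all genes) and 0 lower: Fgf2, with 308.2 CPM in Pi16 barcodes and 182.2 CPM in Pi16-zero barcodes (log2 0.76, 0.69 to 0.82), and Nppc, the C-type natriuretic peptide, with 51.6 and 27.8 CPM in that order. Nppc had 0.365 CPM in young mesenchymal barcodes, and standardised over clusters its log2 ratio was 0.23. Of 9 insulin-like growth factor genes, Igfbp5 and Igfbp4 were higher, Igfbp4 with 1043 CPM in Pi16 barcodes and 662.7 CPM in Pi16-zero barcodes, while Igf1 had 58.4 and 58.0 CPM. Of 14 genes of TGF-beta and BMP signalling, the receptor gene Tgfbr2 was higher (79.8 CPM in Pi16 barcodes, 51.9 CPM in Pi16-zero barcodes) and the ligand gene Tgfb1 lay close, at 70.8 and 64.6 CPM. Of 9 Wnt genes, the inhibitor gene Dkk3 was higher, with 49.96 CPM in Pi16 barcodes and 33.2 CPM in Pi16-zero barcodes.

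Structural matrix genes and transcription factors were mostly alike. Each count given here stands beside 2.03% of all genes at least 1.5-fold higher and 0.864% lower. Of 12 collagens outside the rule and 5 small leucine-rich proteoglycans, 0 were 1.5-fold apart in either direction, and of 15 elastic fibre genes 1 was higher, Fbln1 (fibulin 1), with 33.6 CPM in Pi16 barcodes and 20.2 CPM in Pi16-zero barcodes. Of 22 transcription factors, 1 was higher and 0 lower, Wt1, with 23.5 CPM in Pi16 barcodes and 14.8 CPM in Pi16-zero barcodes. Of 12 Hox genes, 0 were 1.5-fold apart. Of 14 adhesion molecules and integrins, the integrin subunit gene Itgb3 was higher (28.2 CPM in Pi16 barcodes, 17.5 CPM in Pi16-zero barcodes). Of 24 immediate early and dissociation genes, Nr4a3 was higher (55.1 CPM in Pi16 barcodes, 36.4 CPM in Pi16-zero barcodes) and Atf3 lower (11.3 and 19.7 CPM in that order), and the median log2 ratio was 0.10. Of 12 integrated stress genes, Ddit3 was lower, with 53.4 CPM in Pi16 barcodes and 80.3 CPM in Pi16-zero barcodes, and of 16 cell cycle and arrest genes the cyclin gene Ccnd1 was lower, with 37.9 and 60.0 CPM in that order.

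Of 13 genes listed with the CAP family, 4 were tested, 0 were at least 1.5-fold higher and 1 was lower, beside 0.864% of all genes. Glipr1 had 12.3 CPM in Pi16 barcodes and 24.1 CPM in Pi16-zero barcodes, Glipr2 182.2 and 192.8 CPM, and Crispld2 65.9 and 46.2 CPM (log2 0.51, 0.37 to 0.65), each with Pi16 barcodes first. The fourth, R3hdm2, shares the R3H letters in its name with a CAP gene but is not counted as one of the family here, and it lay at a log2 ratio of 0.06.

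**Figure D4:**
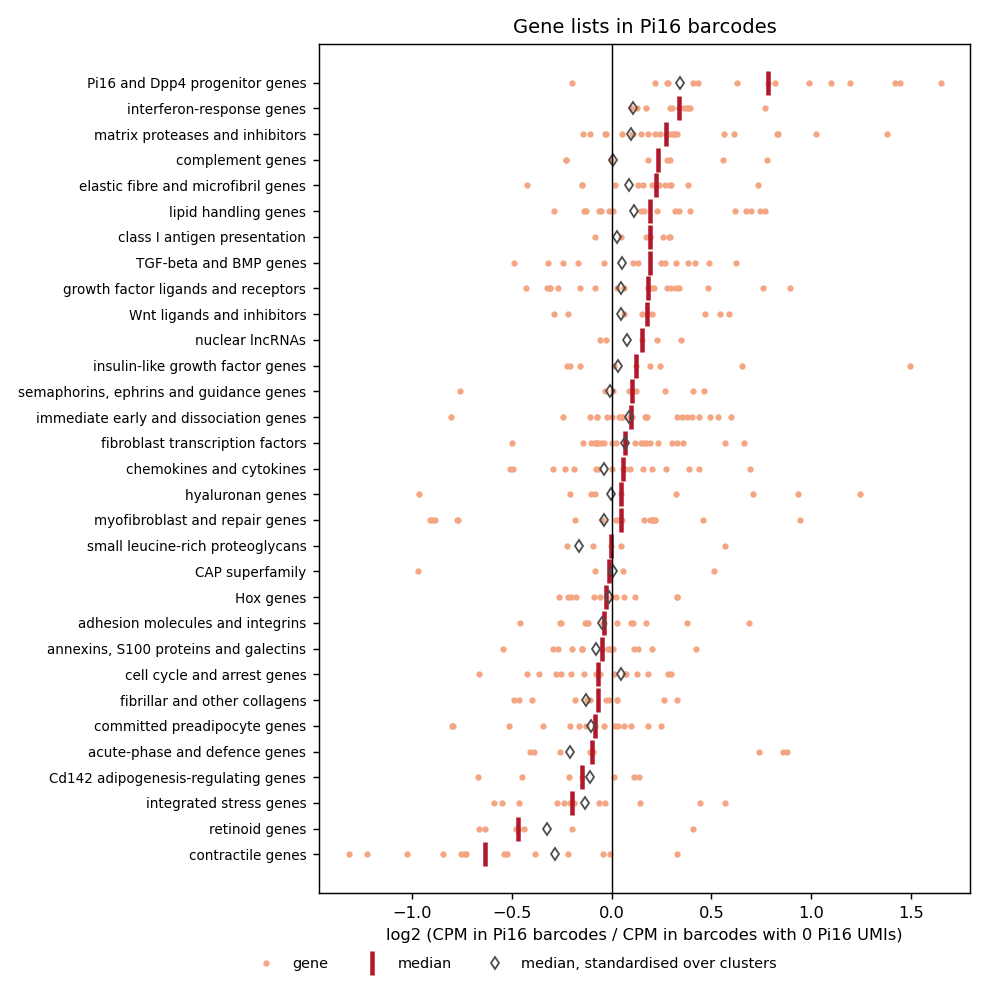
Log2 ratio of Pi16 over Pi16-zero barcodes for each tested gene (pale points) of the 31 lists (rows), with the list median (red bar) and the median standardised over clusters (grey diamond). The progenitor list is at the top with a median of 0.79 and the contractile list at the bottom with -0.63; 26 of the 31 medians lie between -0.2 and 0.25.

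Pi16 barcodes did not form a cluster of their own in the 1 clustering that was made. When the 6748 old mesenchymal barcodes were clustered on variable genes without the rule's genes, Pi16 barcodes were in 15 of 17 clusters. Other cluster settings were not tried. Cluster 0, with Gng4 and Dlx3 among its leading genes, held 247 of the 780, 27.5% of its 899 barcodes (24.6 to 30.5%). Cluster 3, led by Cxcl13 and Tbx5, had 22.9% Pi16 barcodes (103 of 449), cluster 10, led by Apoe and Hsd11b1, 19.4% (97 of 499), cluster 2, led by Abca8a and Ucp2, 15.3% (97 of 635), and cluster 13, led by Actg2 and Ccl17, 11.2% (62 of 552). Among the larger clusters, the low end was made up of cluster 4 (Wdr86, Rgs8) with 3.85%, cluster 8 (Heyl, Eln) with 4.67%, cluster 9 (Ttn, Myl1) with 3.26% and cluster 5, led by the cell division genes Hmmr and Cenpa, with 3.22%. Of the smaller clusters, cluster 6 held 0 Pi16 barcodes of 37, cluster 15 held 0 of 29 and cluster 7 held 1 of 32. The 17 clusters are left unnamed.

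**Figure D5:**
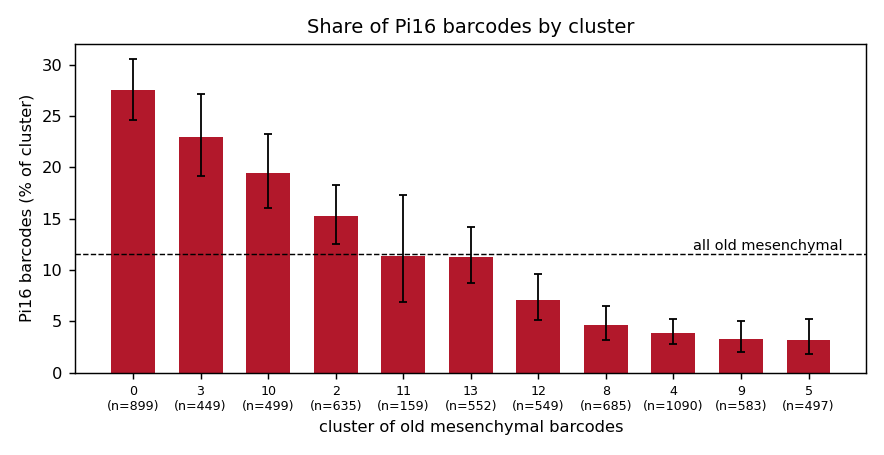
Percent of barcodes in each cluster of at least 100 old mesenchymal barcodes that met the rule, with 95% exact binomial intervals (error bars) and cluster size under each bar. The dashed line is the 11.6% of all old mesenchymal barcodes; cluster 0 stands at 27.5% and cluster 5 at 3.22%.

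Part of the difference went with the clusters. Standardised over clusters, with weights from the Pi16 barcodes, 6 of 7406 genes (0.081%) were at least 2-fold higher and 2 (0.027%) lower. The 2 were Plscr2 and Siglecg, which passed the minimum CPM only through their level in Pi16-zero barcodes. The 6 were Prg4, Cd55, Htra4, Tmem100 and the immunoglobulin genes Igkc and Ighm. Of these, Prg4, Tmem100, Igkc and Ighm passed the minimum CPM only through their level in Pi16 barcodes. Most Igkc and Ighm UMIs of Pi16 barcodes were in 1 barcode. The median of the progenitor list was 0.34 in this comparison and that of the contractile list -0.28, where 0.473% of all genes were at least 1.5-fold higher and 0.257% lower. At that fold, 5 progenitor genes were higher and 0 lower, and 0 contractile genes were higher and 1 lower. The lipid handling, acute-phase and myofibroblast lists each had 0 genes higher and 0 lower in this comparison. Matrix proteases and inhibitors had 3 higher and 0 lower, and hyaluronan genes 1 higher and 1 lower. The direction held inside clusters for most leading genes. In each of the 5 clusters with at least 50 Pi16 barcodes, Ly6a was higher in Pi16 than in Pi16-zero barcodes, with log2 ratios between 0.69 in cluster 0 and 1.67 in cluster 2, and Cd55 had log2 ratios between 0.94 in cluster 10 and 1.68 in cluster 13. Acta2 was lower in all 5, with log2 ratios between -0.65 and -0.41. Prg4 was higher in 4 of the 5 and had a log2 ratio of -0.46 in cluster 2. Ankrd1 was lower in 4 of the 5, with 0.14 in cluster 3.

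Pi16 barcodes of different clusters differed among themselves. Igfbp5 had 724.4 CPM in the Pi16 barcodes of cluster 0, 306.0 CPM in those of cluster 13 and between 46.5 and 56.9 CPM in those of clusters 2, 3 and 10. Cd55 had 128.2 CPM in the Pi16 barcodes of cluster 0 and 20.4 CPM in those of cluster 10, and Procr 273.4 and 54.7 CPM in the same clusters. Il33 was highest in cluster 3 with 266.2 CPM. Dcn had 748.7 CPM in the Pi16 barcodes of cluster 10 and 183.5 CPM in those of cluster 2. Acta2 had 2715 CPM in the Pi16 barcodes of cluster 13 and 456.3 CPM in those of cluster 3, so that a Pi16 barcode could have a low or a high level of smooth muscle actin. Since the clusters were made from these genes, these values are a description.

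A single barcode set the immunoglobulin genes. Of 1585 Igkc UMIs in Pi16 barcodes, 1514 were in 1 barcode, as were 161 of 165 Ighm UMIs and 104 of 105 Jchain UMIs. With barcodes of 10 or more immunoglobulin UMIs left out (1 Pi16 and 1 Pi16-zero barcode), the log2 ratio of Igkc was 0.18, against 4.54 with them, and 27 genes were at least 2-fold higher.

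Across ages, the genes of the progenitor list were compared between all old and all young mesenchymal barcodes, whatever their Pi16 UMIs. Of the 15 tested genes, 11 had levels in old barcodes at least 1.5-fold above those in young ones and 0 the reverse. Of 7272 genes, 15.9% were that far above and 5.69% below. The median log2 ratio of old over young was 1.31, beside 0.14 for the 7272. The 15 had passed a minimum CPM in old barcodes alone, so list genes low in old barcodes were left out whatever their young level. Their count and median are therefore partly set by that filter, and the 7272 are a different set of genes. Procr had 80.8 CPM in old and 7.21 CPM in young mesenchymal barcodes (log2 3.49, 3.35 to 3.62), Ackr3 34.1 and 4.85 CPM in that order, and Cd55 28.6 and 4.82 CPM. Several of the 9 genes below the minimum ran the other way: Dpp4 had 0.725 CPM in old and 2.31 CPM in young mesenchymal barcodes (log2 -1.67, -2.17 to -1.19), and Limch1 2.51 and 8.06 CPM in that order. Levels in Pi16-zero old barcodes were also above the young ones for Gfpt2, with 171.5 and 35.6 CPM, and for Has1, with 34.0 and 2.35 CPM, old first. The 5 young barcodes that met the rule had 43865 UMIs in all, with 11 of Pi16, 25 of Ly6a, 72 of Thbs1, 28 of Acta2, 5 of Cxcl1 and 0 of Cd55, Procr, Has1 and Prg4, too few for a comparison of their own.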

How the data were processed

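The deposited matrices held UMI counts per gene and barcode of 1 old and 1 young library, made by the authors with Cell Ranger on mm10 (GRCm38), per the submitters' processing notes, in version 3.0.1 per the file headers; for further settings, nothing is given in the sources used here. All deposited barcodes were read. The members and gene lists were chosen with earlier results of these data known, so no list is independent evidence. UMIs were summed per group and divided by the group's total (CPM), with exact conditional Poisson intervals for ratios and Clopper-Pearson intervals for shares (95%). The design, 1 library per age, allowed no test and no p-value. Total UMIs were 7965709 in Pi16 barcodes, 45602259 in Pi16-zero barcodes, 147166475 in the whole old library and 130398999 in the whole young library.

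Genes named by rule were the 15 highest and 15 lowest log2 ratios, without mitochondrial, ribosomal protein, haemoglobin, immunoglobulin and sex-linked genes and unnamed gene models, up to 8 genes per list with the largest ratios, and the progenitor and CAP lists with Pi16, Tagln, Acta2, Pparg, Cxcl1, Cthrc1, Cdkn2a and Klf4. Uap1 and the genes given per cluster or Pi16 class were picked after their values were seen. Clusters were found with Leiden (scanpy 1.11.5, igraph 0.11.9) on 2000 variable genes. Standardised ratios weighted each cluster by the summed UMIs of its Pi16 barcodes. Scrublet marked 0 doublets in either library at its automatic threshold and so had not worked; as an alternative, the highest scores were removed, 0.8% per 1000 barcodes (1504 old, 1302 young). Other alternatives were the thresholds, the scaling, depth, the Pdgfra and Rgs5 UMIs of barcodes, and, added after seeing the data, leaving out barcodes rich in immunoglobulin. Endothelial barcodes had at least 3 endothelial UMIs and under 10 collagen UMIs. Of 31053 gene IDs, 30934 matched the GENCODE annotation used for coordinates. The computation was tested on simulated counts. numpy 2.4.6, scipy 1.17.1 and pandas 2.3.3 were used.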

Additional observations from a re-analysis of the deposited data

Results flagged for a closer look

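Other kinds of barcode outside the rule also held Pi16. Among old barcodes that failed only for Top2a or Mki67 UMIs, genes of dividing cells, 10.2% (355 of 3483, 95% exact interval 9.21 to 11.2%) had at least 2 Pi16 UMIs. Among those left out for Pecam1, Cdh5, Ptprc, Upk3b or Sox10 UMIs, the share was 10.5% (154 of 1463). Both are close to the 11.6% of mesenchymal barcodes, at median depths of 11901 and 12365 UMIs against 8646. Of barcodes with under 10 collagen UMIs, 1.24% (25 of 2017) had at least 2. Each is flagged because the comparisons did not use these barcodes and the share lies above the 0.0680% of young mesenchymal barcodes. Those are another kind of barcode, and left-out young barcodes were not counted by kind. Old endothelial barcodes, which are among those with under 10 collagen UMIs, had a share of 1.65% and 14.9 CPM. Whether the 1.24% reflects free RNA was not tested. Pi16 levels were 41.7, 43.8 and 15.4 CPM in the 3 kinds in the order given, beside 60.6 CPM in mesenchymal barcodes.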

How the results depend on the processing

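The Pi16 threshold and depth moved the shares most. At 1 or more Pi16 UMIs, 1876 old (27.8%) and 61 young (0.829%) barcodes qualified, at 3 or more 432 (6.40%) and 1 (0.0136%), and thinned to 3000 UMIs 243 (3.65%) and 1 (0.0140%); with at least 30 collagen UMIs the old share was 12.6%. Genes at least 2-fold higher numbered 6 standardised over clusters, 57 at 3 or more Pi16 UMIs against 0, 0 at 1 UMI against 0, 13 at a mean CPM of at least 50 and 150 at 1.5-fold, against 29; genes at least 2-fold lower numbered 2, 24, 0, 2 and 64 in the same settings and 21 at a mean CPM of at least 5, against 10. The progenitor median of 0.79 was 0.72 with the mean of per-barcode CPM, 0.34 over clusters, 0.92 at 3 or more UMIs and 0.18 at 1 UMI; its old over young median of 1.31 was 1.17 with median-of-ratios scaling and 1.22 with per-barcode means. The cause was not tested. Over 9 alternatives for 47 named genes, 282 of 423 values stayed inside the counting interval and 7 had the other sign: Glipr1 (log2 0.0438), Hmga2 (0.0429) and Cdkn2a (0.0824) at 1 Pi16 UMI against 0, and Cxcl1, at 0.00, in 4 settings (-0.04 to -0.01). Of 279 list medians, 244 stayed inside and 18 had the other sign, all of lists with a median between -0.20 and 0.23. With 1 library per age, no library can be left out. No paired analysis was possible because each age has 1 library. Depth limits Dpp4, Bmp7, Efhd1 and the 5 young barcodes, which rest on few UMIs.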
